A study of Mus musculus with 40 samples.

Results

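The integrated stress response genes examined here were Atf4, Atf3, Ddit3, Trib3, Chac1, Sesn2, Ddit4, Asns, Xbp1 and Herpud1. They were taken by gene name from a gene-level RNA sequencing count table of 55539 features, so 10 of those features are described. The 39 libraries were made from left-sided somatomotor cortex. The animals were female mice of the 3xTg-AD line, 2 to 4 months old on a C57BL/6J background, and all except the Sham group received weight-drop closed head injuries (CHI) once daily under isoflurane. One further library, sample 30 of the 3xCHI 4 h group, was left out because the study removed that animal as an outlier in its protein data. The 4 sham-injured animals were anesthetized but not hit, and serve as Sham. The study matched sham anesthesia to every injury group and time and then pooled these animals. The labels do not give how many exposures each Sham animal had. Tissue was taken 30 min (3 libraries), 4 h (3) and 24 h (4) after a single injury (1xCHI), at the same times after the last of 3 injuries (3xCHI, with 3, 2 and 4 libraries) and after the last of 5 injuries (5xCHI, with 3, 3 and 4). Tissue taken 24 h after 2 injuries (2xCHI, 3 libraries) and 24 h after 4 injuries (4xCHI, 3 libraries) gives the state just before the third and the fifth injury. All 12 groups, Sham included, carry the 3xTg-AD genotype, in which mutant human APP and tau transgenes are driven in neurons by the Thy1 promoter, so none of the groups shows these genes in a wild-type cortex.

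The integrated stress response starts when one of the kinases Eif2ak1 to Eif2ak4 phosphorylates the translation factor eIF2α after amino acid shortage, misfolded protein in the endoplasmic reticulum (ER), double-stranded RNA or heme loss. Most protein synthesis then slows, while the transcription factor Atf4 is made more efficiently from mRNA that is already present. The Atf4 mRNA level therefore does not show how much Atf4 protein a cell makes. Atf4 switches on other transcription factors (Atf3, Ddit3, also called CHOP), the pseudokinase Trib3, which restrains Atf4, and target genes for amino acid supply and redox balance (Asns, Chac1) and for lowering mTORC1 activity (Sesn2, Ddit4). Xbp1 and Herpud1 belong to the neighbouring unfolded protein response of the ER. In brain tissue several of these genes also answer to other signals: Atf3 is known as a nerve injury gene and immediate early gene, and Ddit4 is induced by glucocorticoids and hypoxia.

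Levels are CPM values, which are counts divided by the TMM-scaled library size, and differences are log2 fold changes from edgeR's quasi-likelihood test, with p-values adjusted by the Benjamini-Hochberg method over 15224 features. Total counts ranged from 15925995 to 27859530 per library, with a median of 19028763. Several libraries stood apart from the rest. Sample 10 (5xCHI 4 h) and sample 11 (5xCHI 24 h) had 1631 and 2417 CPM of Gfap, the intermediate filament of reactive astrocytes, against 125 to 175 CPM in Sham, together with the highest summed microglial markers (740 and 938 CPM, Sham 309 to 354) and the lowest summed neuronal markers (6012 and 5329 CPM, Sham 7806 to 8458). Their summed astrocyte markers, which include Gfap, were the highest (6690 and 7363 CPM, Sham 4013 to 5137), and their oligodendrocyte markers were above all Sham libraries (7634 and 8680 CPM, Sham 4665 to 6668). Samples 13 and 14, which are 2 of the 3 libraries of 1xCHI 30 min, had the highest share of mitochondrial transcripts (10.3% and 10.1% of counts, Sham 6.09% to 6.89%) and the highest summed blood markers (516 and 508 CPM, Sham 176 to 280). Both were below all Sham libraries in neuronal (7377 and 7367 CPM) and astrocyte markers (3104 and 3752 CPM) and above them in oligodendrocyte markers (7077 and 7675 CPM), while sample 27, the third library of that group, lay within the Sham range for all 3 (8456, 4415 and 5186 CPM). Sample 27 was outside the Sham range for mitochondrial share (7.10%) and for blood markers (90.3 CPM, the lowest of all 39 libraries). Samples 24, 31 and 32 had the highest summed choroid plexus markers (880, 2545 and 1331 CPM, Sham 8.44 to 24.8) and sample 15 the highest summed meningeal markers (3998 CPM, Sham 668 to 1023). All 8 neuronal and all 8 astrocytic markers were detected in every library, while the neutrophil gene S100a8 was at 0 in 8 libraries and the choroid plexus gene Slc4a5 at 0 in 4. In whole cortex, fewer cells of a type and less RNA per cell cannot be told apart.

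The 10 genes differed widely in level. Per kilobase of merged exon, Atf4 was the most abundant with 60.7 ± 8.10 CPM per kb (SD over 39 libraries) and was above the next gene in all 39 libraries. Asns, which makes asparagine, followed with 31.0 ± 3.52 CPM per kb, and Xbp1 with 26.0 ± 3.91. Herpud1 and Ddit4 were neighbours at 22.1 ± 2.50 and 21.4 ± 7.04 CPM per kb, and Herpud1 was above Ddit4 in only 24 of 39 libraries. Ddit3 had 13.8 ± 4.05 CPM per kb. Sesn2 and Chac1 did not separate either, with 4.19 ± 0.411 and 4.12 ± 0.558 CPM per kb and Sesn2 higher in 19 of 39 libraries. Atf3 (0.896 ± 1.36 CPM per kb) and Trib3 (0.361 ± 0.219) were the lowest. Both had fewer than 10 counts in 8 libraries, more than the 4 that the filter allows, so the main fit tested 8 of the 10 genes, and Atf3 and Trib3 were tested in a second fit of 15226 features to which both were added. The spread over libraries was widest for Atf3, whose highest CPM was 38.5 times its lowest, and Trib3 (11.8 times). It was narrowest for Asns (1.54 times) and Herpud1 (1.63 times). The highest library of 8 of the 10 genes was sample 11 (Ddit3, Trib3, Sesn2 and Ddit4) or sample 14 (Atf3, Atf4, Xbp1 and Herpud1).

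The genes lie on 8 chromosomes of the mouse genome (GRCm38, mm10), with positions from the GENCODE M21 annotation whose identifiers the table uses. The regulators are Atf4 (ENSMUSG00000042406, chr15:80255184-80257541, plus strand), Atf3 (ENSMUSG00000026628, chr1:191170296-191218039, minus strand), Ddit3 (ENSMUSG00000025408, chr10:127290774-127296288, plus strand) and Trib3 (ENSMUSG00000032715, chr2:152337422-152344032, minus strand). The table holds 1 more row named Ddit3, which had a count of 0 in every library and was not used. Among the targets, Chac1 (ENSMUSG00000027313) lies at chr2:119351229-119354381 on the plus strand, Sesn2 (ENSMUSG00000028893) at chr4:132492032-132510501 on the minus strand, Ddit4 (ENSMUSG00000020108) at chr10:59949669-59951834 on the minus strand and Asns (ENSMUSG00000029752) at chr6:7675169-7693254 on the minus strand. The ER genes are Xbp1 (ENSMUSG00000020484, chr11:5520659-5525893, plus strand) and Herpud1 (ENSMUSG00000031770, chr8:94386438-94395377, plus strand).

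Atf4 and its partners of the C/EBP family are known to bind a composite element, searched here on both strands as TGATGNAA. The window ran from 250 bases before to 50 bases after the annotated start in RefSeq promoter sequences of GRCm38.p6, in which all 10 genes were found. The element was present in 5 of the 10 windows (Atf3, Trib3, Chac1, Asns and Herpud1), and in 3.97% of the 32851 windows of all genes. The cyclic AMP response element TGACGTCA (1.79% of all windows), the unfolded protein response element TGACGTGG (0.676%) and the ER stress response element (0.119%) were in none of the 10. The stretches below show the 5 matches in capitals with their surroundings, 5′ to 3′ on the strand of the gene, because this element is the only one of the 4 searched that was found in any of the 10 windows. The match in Asns reads in the direction of the gene, and the others are on the opposite strand and appear as the reverse complement.
Atf3, chr1:191183396-191183483, minus strand, match from base -110 to -103: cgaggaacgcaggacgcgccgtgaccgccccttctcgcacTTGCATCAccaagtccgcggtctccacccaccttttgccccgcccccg
Chac1, chr2:119351009-119351096, plus strand, match from base -193 to -186: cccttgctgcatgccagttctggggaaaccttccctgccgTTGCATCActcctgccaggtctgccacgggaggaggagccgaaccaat
Asns, chr6:7693210-7693272, minus strand, match from base -23 to -16: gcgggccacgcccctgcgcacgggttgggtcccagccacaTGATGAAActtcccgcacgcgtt
Herpud1, chr8:94386277-94386364, plus strand, match from base -112 to -105: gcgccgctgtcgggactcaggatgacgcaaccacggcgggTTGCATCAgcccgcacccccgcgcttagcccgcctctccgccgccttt
Trib3, chr2:152344028-152344057, minus strand, match from base 14 to 21 after the start: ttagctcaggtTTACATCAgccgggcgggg
The RefSeq starts of Atf3, Chac1 and Asns lie inside the gene spans of GENCODE M21, and those of Trib3 and Herpud1 lie upstream of them. By GENCODE, the Atf3 and Asns matches therefore lie within the gene spans, and the Trib3 match lies upstream of its gene. A match of these letters is a description of the sequence, and the libraries hold no measurement of binding.

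**Figure D1:**
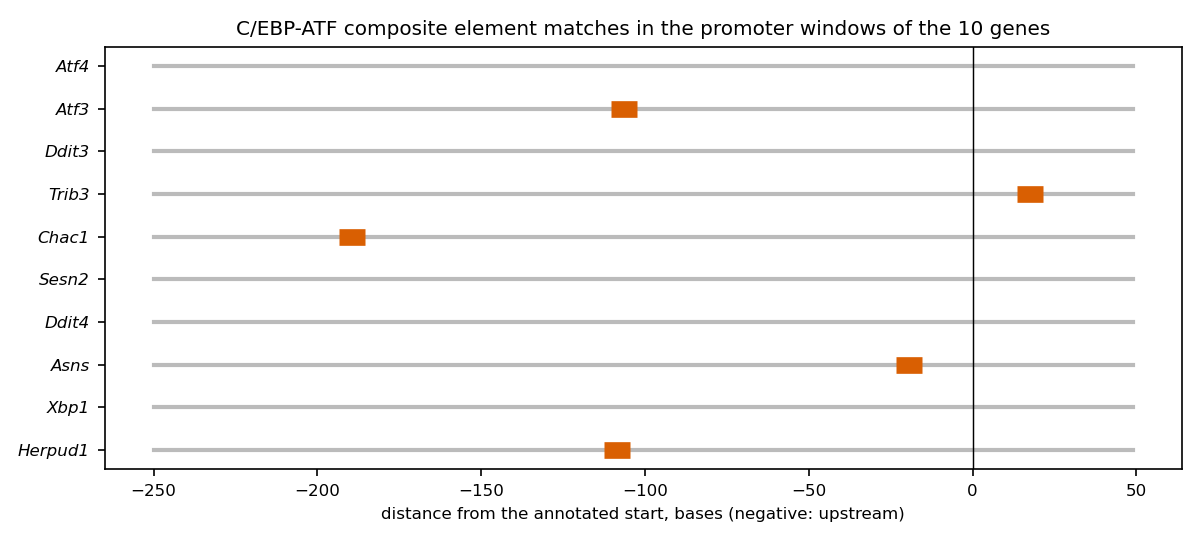
Position of each match to the C/EBP-ATF composite element (orange boxes) in the promoter windows of the 10 genes (grey lines). The horizontal axis gives the distance from the annotated start in bases, and matches are seen in Atf3, Trib3, Chac1, Asns and Herpud1.

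After a single injury, 4 of the 8 genes of the main fit had higher levels at 30 min than in Sham at an unadjusted p under 0.05 (Atf4, Xbp1, Ddit3 and Ddit4), and none passed the adjusted threshold. This is to be read against a background in which 19.7% of all 15224 features had an unadjusted p under 0.05 in the same comparison and 0% passed after adjustment. DESeq2 called 28 features in this comparison and 0 of these genes. The median log2 fold change was 0.25 over the 8 genes and -0.00 over all features.

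Atf4 had 192, 198 and 146 CPM in samples 13, 14 and 27 of 1xCHI 30 min, and 129, 156, 141 and 130.5 CPM in the 4 Sham libraries. Samples 13 and 14 were above every Sham library and sample 27 lay within the Sham range. The log2 fold change was 0.36 ± 0.12 (SE), with an unadjusted p of 0.0039 and an edgeR adjusted p of 0.167. Xbp1, whose mRNA is spliced by the ER sensor Ire1 into the form that encodes an active transcription factor, had 125, 129 and 81.4 CPM at 30 min and 66.8, 104, 98.7 and 76.9 CPM in Sham. Its log2 fold change was 0.37 ± 0.13 (unadjusted p = 0.0061, edgeR adjusted p = 0.169). Gene-level counts do not separate spliced from unspliced Xbp1.

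Ddit3, the proapoptotic transcription factor CHOP, had 44.3 and 37.7 CPM in samples 13 and 14 and 18.2 CPM in sample 27, against 18.55, 25.3, 17.0 and 17.8 CPM in Sham. Its log2 fold change was 0.76 ± 0.27 (unadjusted p = 0.0083, edgeR adjusted p = 0.174). Ddit4, an inhibitor of mTORC1 also called REDD1, had 63.3, 64.7 and 37.0 CPM at 30 min and 30.9, 35.8, 27.8 and 29.3 CPM in Sham. Ddit4 was the only one of these 4 genes in which all 3 libraries of 1xCHI 30 min were above all 4 of Sham. Its log2 fold change was 0.83 ± 0.30 (unadjusted p = 0.0096, edgeR adjusted p = 0.178).

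Atf3, an inducible transcription factor of the same family as Atf4, showed the widest split. It had 8.36 and 11.7 CPM in samples 13 and 14 (174 and 275 counts), and 0.587 CPM in sample 27 (11 counts). The Sham libraries held 0.437, 0.786, 0.699 and 0.394 CPM (7 to 22 counts), so sample 27 was at the Sham level. In the fit with Atf3 added, the log2 fold change was 3.53 ± 0.96, the unadjusted p 0.00087 and the edgeR adjusted p 0.167. Trib3 had 1.01, 0.935 and 0.694 CPM at 30 min and 0.982, 0.500, 0.645 and 0.676 CPM in Sham, with overlapping groups and a log2 fold change of 0.35 ± 0.45.

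The remaining genes of the pathway overlapped with Sham or lay below it. Herpud1, an ER membrane protein that helps to clear misfolded proteins, had a log2 fold change of 0.13, Chac1, which degrades glutathione, of -0.14, and Asns of -0.18. Asns had 68.4 and 75.6 CPM in samples 13 and 14, below the 83.6 to 93.4 CPM of Sham. Sample 13 was the lowest of all 39 libraries, and sample 27, with 91.0 CPM, lay within the Sham range. Sesn2, a leucine sensor that restrains mTORC1, had 13.1, 14.5 and 13.8 CPM in 1xCHI 30 min, all below the 14.5 to 16.0 CPM of Sham, and its log2 fold change was -0.17. With single libraries left out, the values ranged from 0.03 to 0.22 for Herpud1, from -0.23 to -0.06 for Chac1, from -0.30 to -0.09 for Asns and from -0.21 to -0.14 for Sesn2.

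The differences from Sham rested on samples 13 and 14. With sample 27 left out, edgeR called 3602 features and 4 of the 8 genes at 30 min: the adjusted p was 0.0104 for Atf4, 0.0072 for Xbp1, 0.0117 for Ddit3 and 0.0251 for Ddit4, and 0.0082 for Atf3 in the fit with Atf3 added. With samples 13 and 14 left out, a fit added after seeing the data in which the lone sample 27 is assumed to vary like the other groups, the log2 fold changes were 0.07 for Atf4, -0.09 for Xbp1, -0.12 for Ddit3, 0.25 for Ddit4 and -0.00 for Atf3. Samples 13 and 14 were also those with the highest mitochondrial share and blood markers, and with neuronal, astrocyte and oligodendrocyte markers outside the Sham range, and the part of these in the values was not tested. Samples 15 to 18, of 1xCHI 4 h and 24 h, had mitochondrial shares of 8.19% to 9.83%, and their Atf3 lay between 0.348 and 0.958 CPM. Among them, sample 17 was above every Sham library for Atf4 (177 CPM), Ddit3 (26.3 CPM) and Ddit4 (40.5 CPM).

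**Figure D2:**
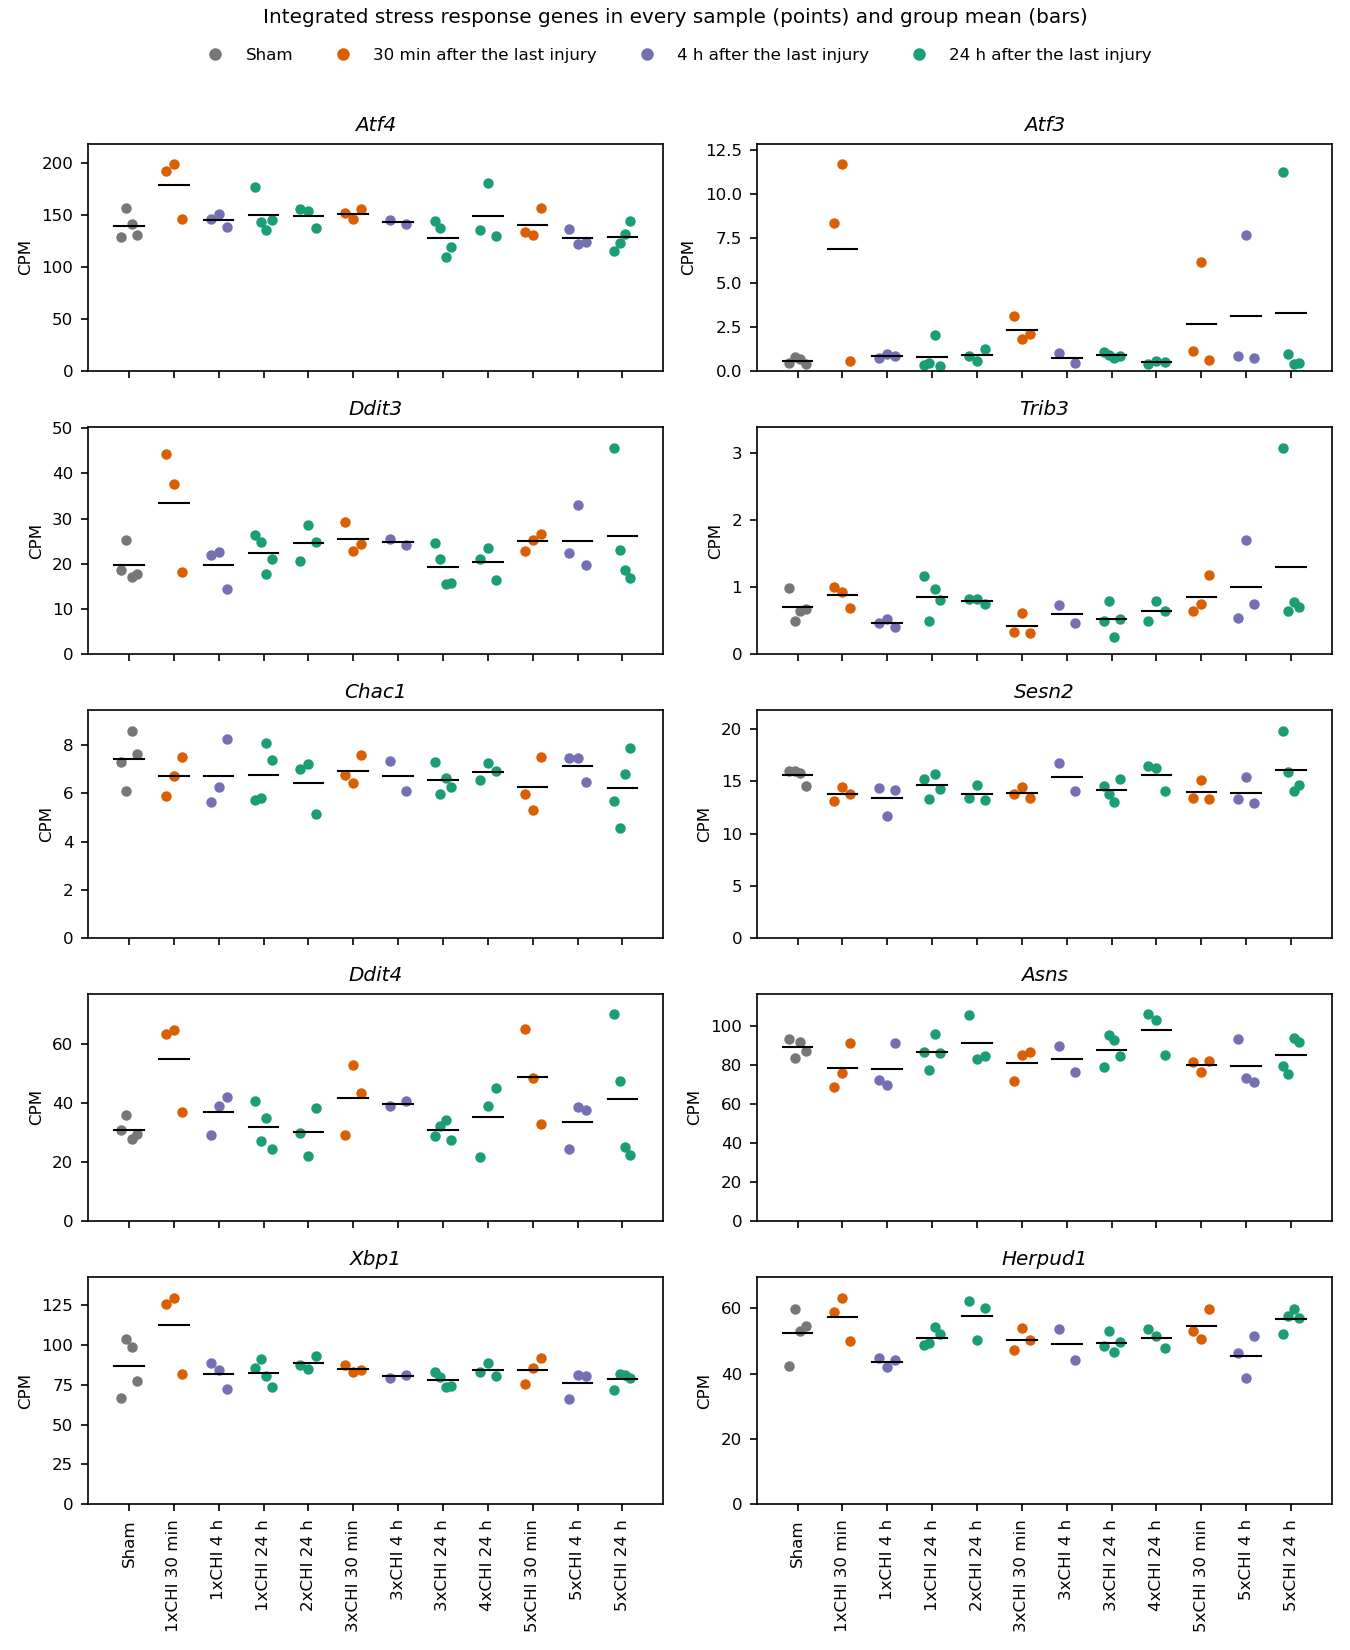
CPM (vertical axes, from 0) of the 10 genes in each of the 39 libraries (points) by group, with the group mean as a bar and colours for the time after the last injury. Samples 13 and 14 of 1xCHI 30 min stand above Sham for Atf4, Atf3, Ddit3, Ddit4 and Xbp1, and sample 11 of 5xCHI 24 h stands apart for Atf3, Ddit3 and Trib3.

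The comparison of 30 min with 24 h, averaged over 1xCHI, 3xCHI and 5xCHI, asks whether the genes move early after an injury irrespective of how many came before. Each injury was given under isoflurane, so recent injury and recent anesthesia cannot be told apart in it. None of the 8 genes passed the adjusted threshold, which 0.145% of all features did (22 features), and 3 of the 8 had an unadjusted p under 0.05, as did 10.5% of all features. DESeq2 called 52 features and 0 of these genes. These 3 genes were all higher at 30 min, and the median log2 fold change was 0.13 over the 8 genes and -0.01 over all features. The 24 h libraries of this comparison are different animals from the Sham libraries above, but the 1xCHI 30 min libraries are in both.

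Atf4 ranged from 130 to 198 CPM with a median of 152 in the 9 libraries at 30 min and from 110 to 177 with a median of 136 in the 12 libraries at 24 h. The ranges overlapped, and the log2 fold change was 0.21 ± 0.07 (unadjusted p = 0.0040, edgeR adjusted p = 0.383). Xbp1 ranged from 75.2 to 129 CPM (median 85.4) at 30 min and from 71.6 to 90.9 (median 80.1) at 24 h, with a log2 fold change of 0.22 ± 0.07 (unadjusted p = 0.0048, edgeR adjusted p = 0.400). By group, the mean of Xbp1 at 30 min was 112 ± 26.6 CPM (SD) after 1xCHI, 84.8 ± 2.03 after 3xCHI and 84.1 ± 8.30 after 5xCHI, and at 24 h it was 82.6 ± 7.51, 77.6 ± 4.48 and 78.4 ± 4.65. Ddit4 had the largest difference of the 3, 0.50 ± 0.17 (unadjusted p = 0.0076, edgeR adjusted p = 0.422). Its group means at 30 min were 55.0 ± 15.6 CPM after 1xCHI, 41.9 ± 11.9 after 3xCHI and 48.9 ± 16.1 after 5xCHI, and at 24 h 31.7 ± 7.42, 30.7 ± 3.02 and 41.3 ± 22.3. Without samples 13 and 14 the log2 fold changes were 0.11 for Atf4, 0.07 for Xbp1 and 0.31 for Ddit4, with unadjusted p-values of 0.14, 0.34 and 0.136.

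For Atf3 the log2 fold change was 1.38 ± 0.53 (unadjusted p = 0.014, edgeR adjusted p = 0.441). After 3xCHI the 3 libraries at 30 min had 3.10, 1.83 and 2.11 CPM, all above the 4 libraries at 24 h (1.1003, 0.902, 0.737 and 0.832 CPM) and above the 3 of 2xCHI 24 h (0.871, 0.566 and 1.23 CPM). After 5xCHI they had 1.16, 6.15 and 0.646 CPM at 30 min, and 11.3, 0.981, 0.392 and 0.439 CPM at 24 h. Sample 11 alone held the 11.3 CPM. Without sample 11 the log2 fold change of Atf3 was 2.18 with an edgeR adjusted p of 0.0349, and without samples 10 and 11 it was 2.17 with 0.0152. Without samples 13 and 14 it was 0.20, and without sample 8, which held the 6.15 CPM, 0.87.

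The other 5 genes had unadjusted p-values of 0.060 or more. Ddit3 had a log2 fold change of 0.31 ± 0.16 (unadjusted p = 0.060), Herpud1 of 0.05, Chac1 of 0.03, Sesn2 of -0.11 (unadjusted p = 0.084) and Asns of -0.12 (unadjusted p = 0.10). Trib3, in the fit to which it was added, had -0.27 ± 0.27, and 0.02 without sample 11. Without sample 27, Atf4 and Xbp1 had edgeR adjusted p-values of 0.0489 and 0.0273, and 192 features were called.

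**Figure D3:**
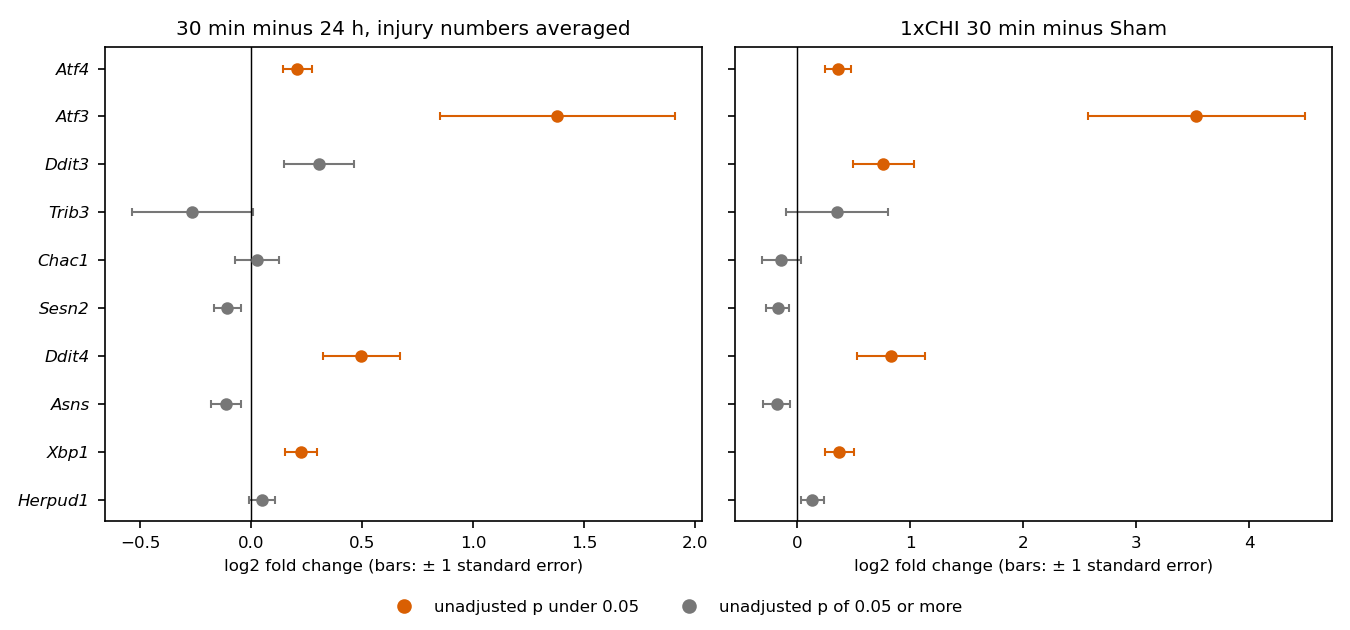
Log2 fold change of each gene with its standard error (horizontal bars) for 30 min against 24 h (left) and for 1xCHI 30 min against Sham (right), where Atf3 and Trib3 come from the fit to which they were added. Orange points have an unadjusted p under 0.05, and no gene had an adjusted p under 0.05 in either comparison.

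Across the whole time course within 1xCHI, 3xCHI and 5xCHI, Herpud1 had the smallest p of the 8 genes (unadjusted p = 0.0058, edgeR adjusted p = 0.768), followed by Xbp1 (unadjusted p = 0.020, edgeR adjusted p = 1.00). These 2 of 8 compare with 4.25% of all features at an unadjusted p under 0.05 and 0.0328% after adjustment. DESeq2 called 59 features and 0 of these genes. Atf3, in the fit to which it was added, had an unadjusted p of 0.017 and an edgeR adjusted p of 1.00. Herpud1 had its lowest median at 4 h. It ranged from 38.7 to 53.7 CPM with a median of 44.5 in the 8 libraries at 4 h, from 47.1 to 63.2 with a median of 53.04 in the 9 at 30 min, and from 46.5 to 59.8 with a median of 52.0 in the 12 at 24 h. The ranges overlapped, since sample 1 of 3xCHI 4 h had 53.7 CPM and sample 32 of 5xCHI 4 h had 51.5. For 4 h against 24 h the log2 fold change of Herpud1 was -0.19 ± 0.06 (unadjusted p = 0.0060, edgeR adjusted p = 0.993), and it was the only one of the 8 genes under an unadjusted p of 0.05, against 3.44% of all features and 0.00657% after adjustment. Leaving out single libraries gave values from -0.24 to -0.14.

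At 4 h after 1xCHI, Herpud1 had 44.7, 41.9 and 44.3 CPM, and Sham had 42.4, 59.6, 52.98 and 54.4 CPM. Sham sample 6 alone lay within the 4 h range, and the log2 fold change was -0.26 ± 0.10 (unadjusted p = 0.017, edgeR adjusted p = 0.391). Sesn2 had 14.4, 11.7 and 14.1 CPM at 4 h and 16.0, 16.0, 15.8 and 14.5 CPM in Sham, without overlap, and its log2 fold change was -0.21 ± 0.10 (unadjusted p = 0.048, edgeR adjusted p = 0.470). Without sample 16, which held the 11.7 CPM, it was -0.13 with an unadjusted p of 0.266. These 2 of 8 genes compare with 10.5% of all features at an unadjusted p under 0.05 and 0% after adjustment, with 11 features called by DESeq2 and none of them one of these genes. At 24 h after 1xCHI none of the 8 genes had an unadjusted p under 0.05, as 6.02% of all features did, and 0% of features were called by edgeR and 0 by DESeq2. The 3 comparisons with Sham share the same 4 Sham libraries.

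Against 2xCHI 24 h, the state before the third injury, none of the 8 genes passed the adjusted threshold at any of the 3 times. At 30 min and 4 h after 3xCHI none of the 8 genes had an unadjusted p under 0.05 (1.88% and 2% of all features did, and 0% and 0% were called by edgeR). DESeq2 called 4 features at 30 min and 0 at 4 h, and 0 of these genes. Atf3 had a log2 fold change of 1.41 at 30 min in the fit to which it was added (unadjusted p = 0.186), although its 3 libraries at 30 min were all above the 3 of 2xCHI 24 h. At 24 h after 3xCHI, Herpud1 had 48.6, 52.9, 46.5 and 49.8 CPM against 62.2, 50.4 and 60.1 CPM in 2xCHI 24 h, with a log2 fold change of -0.22 ± 0.10 (unadjusted p = 0.041, edgeR adjusted p = 0.943). Here 4.57% of all features had an unadjusted p under 0.05, and 0% were called by edgeR and 0 features by DESeq2. Without sample 19 the unadjusted p was 0.179.

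Against 4xCHI 24 h, the state before the fifth injury, Asns was the only one of the 8 genes with an unadjusted p under 0.05 at 30 min and at 4 h after 5xCHI. Both comparisons use the same 3 libraries of 4xCHI, as does the one at 24 h, so they are not independent of each other. It had 106, 103 and 85.1 CPM in 4xCHI 24 h. At 30 min after 5xCHI it had 81.5, 76.0 and 82.0 CPM, all below 4xCHI, with a log2 fold change of -0.29 ± 0.13 (unadjusted p = 0.027, edgeR adjusted p = 0.780). At 4 h it had 93.0, 73.1 and 71.2 CPM, with -0.31 ± 0.13 (unadjusted p = 0.021, edgeR adjusted p = 0.929). The background was 6.36% of all features at an unadjusted p under 0.05 for 30 min and 5.33% for 4 h, with 0% and 0% called by edgeR. DESeq2 called 1 feature at 30 min and 0 at 4 h, and none of them was one of these genes. Sample 24 of 4xCHI, the library with the highest Asns, was also among the 3 with the highest choroid plexus markers, and the others, samples 31 and 32, are in 5xCHI 30 min and 5xCHI 4 h. Without sample 24 the log2 fold change at 30 min was -0.23 with an unadjusted p of 0.109. At 4 h it was -0.24 without sample 32, the library with the lowest Asns of that group, with an unadjusted p of 0.112. Without samples 15, 24, 31 and 32 it was -0.26 at 30 min (unadjusted p = 0.112) and -0.19 at 4 h (unadjusted p = 0.248).

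At 24 h after 5xCHI none of the 8 genes had an unadjusted p under 0.05, against 6.44% of all features, with 0% called by edgeR and 0 features by DESeq2. Atf3 and Trib3 did so in the fit to which they were added, and both rested on sample 11. Atf3 had 0.385, 0.579 and 0.495 CPM in 4xCHI 24 h (7 to 11 counts), and 11.3 CPM in sample 11. Its log2 fold change was 2.73 ± 1.07 (unadjusted p = 0.016, edgeR adjusted p = 0.647), and 0.32 without sample 11. Trib3 had 3.07 CPM in sample 11 (66 counts), and 0.640, 0.783 and 0.702 CPM in the other libraries of 5xCHI 24 h. Its 4xCHI levels were 0.495, 0.789 and 0.644 CPM, and its log2 fold change was 1.00 ± 0.45 (unadjusted p = 0.035, edgeR adjusted p = 0.724). Likewise, the difference of Atf3 from 4xCHI was 2.41 at 30 min after 5xCHI and 0.88 without sample 8, and it was 2.69 at 4 h and 0.73 without sample 10.

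Averaged over the 3 times and set against Sham, none of the 8 genes had an unadjusted p under 0.05 after 1xCHI, 3xCHI or 5xCHI, where 16.7%, 4.89% and 10.3% of all features did and 0%, 0% and 0% were called by edgeR. The medians over the 8 genes were 0.01, -0.08 and -0.09. Over Sham and the 5 injury numbers at 24 h, and for the question whether the time course differs between injury numbers, none of the 8 was under 0.05 either, against 4.58% and 2.63% of all features with 0% and 0% called by edgeR. DESeq2 called 19, 0, 7, 20 and 6 features in these 5 comparisons and 0 of these genes. In the fit to which it was added, Atf3 had a log2 fold change of 2.34 ± 0.85 for 5xCHI against Sham (unadjusted p = 0.0095, edgeR adjusted p = 0.462), with samples 8, 10 and 11 as its 3 highest libraries in 5xCHI. For injury number at 24 h, where sample 11 is included, it had an unadjusted p of 0.042 and an edgeR adjusted p of 0.984.

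Sample 11 held the highest Ddit3 (45.7 CPM), Ddit4 (70.1), Sesn2 (19.8) and Trib3 (3.07) of all 39 libraries, and its Atf3 (11.3) was second only to sample 14. Its Atf4, at 115 CPM, was below all 4 Sham libraries, and its Xbp1, at 71.6 CPM, lay within the Sham range. Sample 10 shared part of this, with 7.71 CPM of Atf3, 33.0 of Ddit3 and 1.70 of Trib3, and 122 CPM of Atf4. Both libraries also had the high glial and low neuronal markers given above, whose part in these values was not tested. Samples 13 and 14 combined high Atf3, Ddit3 and Ddit4 with the highest Atf4 and Xbp1, and their Trib3 stayed at 1.01 and 0.935 CPM. Gfap was at 145 and 168 CPM in samples 13 and 14, within the Sham range. Sample 8 of 5xCHI 30 min, with 6.15 CPM of Atf3, had 559 CPM of Gfap, above all Sham libraries. The relation of Atf3 to Gfap was not tested.

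**Figure D4:**
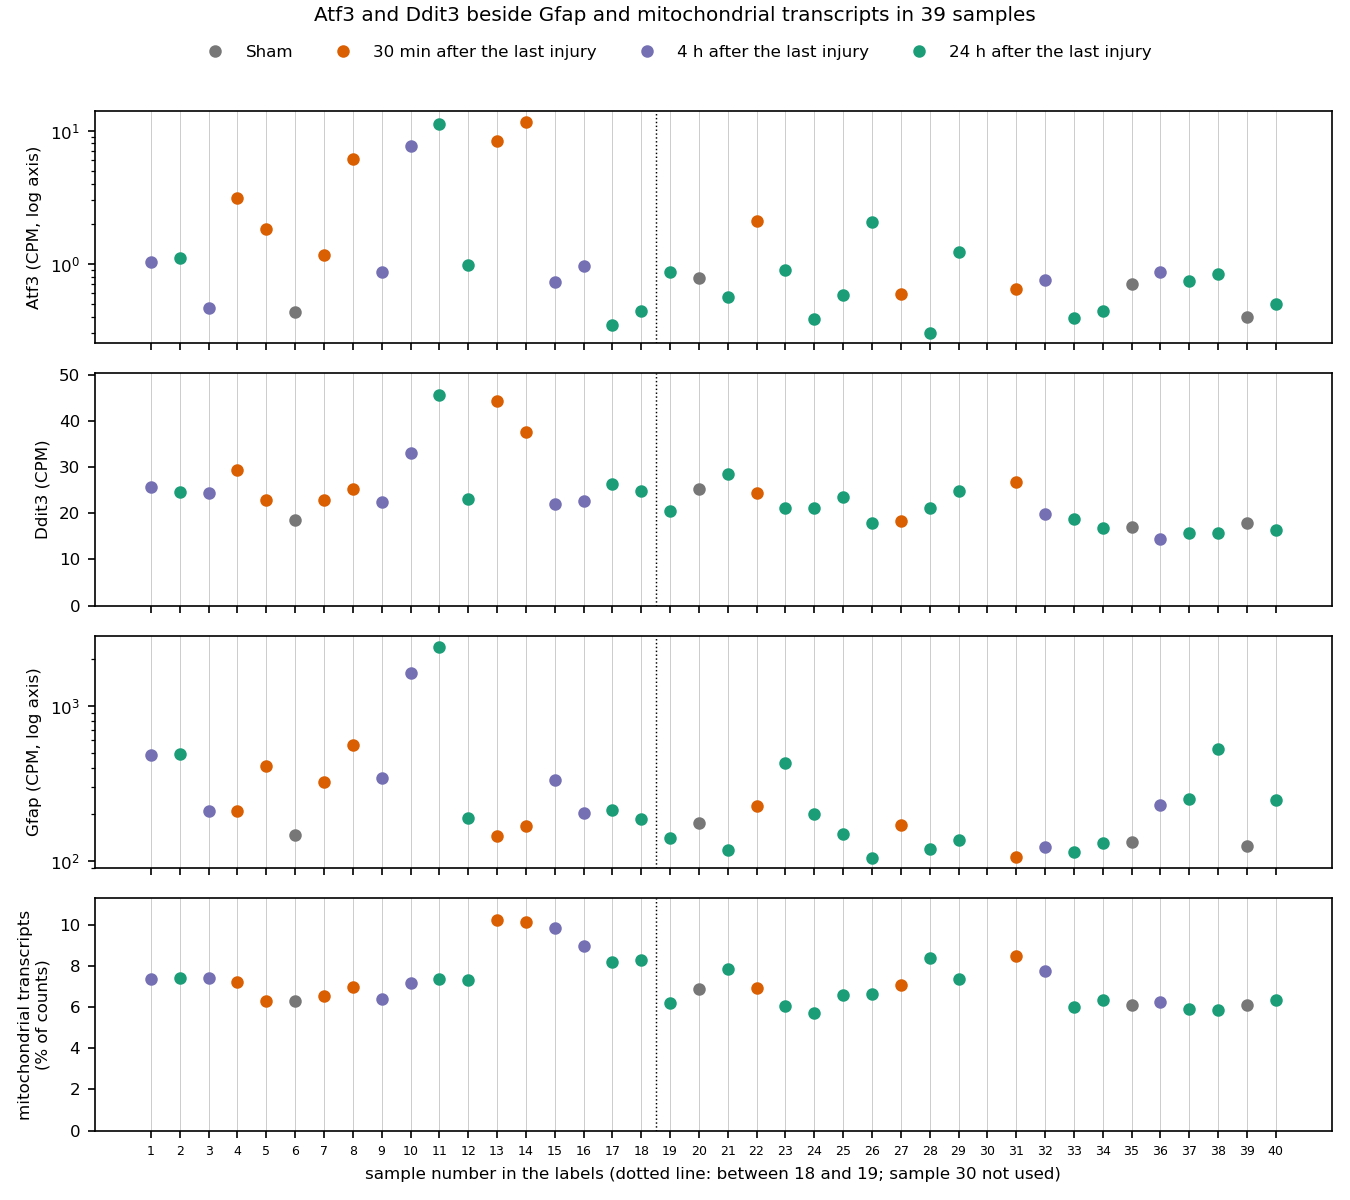
Atf3 (CPM, log axis), Ddit3 (CPM), Gfap (CPM, log axis) and the share of mitochondrial transcripts (percent of counts) in the 39 libraries by sample number, coloured by time after the last injury. High Atf3 and Ddit3 fall on samples 10 and 11, where Gfap is highest, and on samples 13 and 14, where the mitochondrial share is highest.

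All 6 libraries with over 3 CPM of Atf3 had sample numbers from 1 to 18, a range that the labels give no name to and that was chosen from earlier results. Within this range, Atf3 was higher by 1.74 on the log2 CPM scale at 30 min than at 24 h (6 and 5 libraries), and within samples 19 to 40 by 0.44 (3 and 7 libraries). For Atf4 these differences were 0.17 and 0.22, for Xbp1 0.21 and 0.15, and for Ddit4 0.37 and 0.41. For Ddit3 they were 0.08 and 0.34. All of 2xCHI and 4xCHI and 3 of the 4 Sham libraries fall in 19 to 40, while most of the other groups hold libraries of both ranges. With the range as a covariate, none of the 8 genes was called by edgeR in any comparison. Of all features, that fit called 17 for 30 min against 24 h, 4 for the time course and 1 for 4 h against 24 h. The log2 fold changes for 30 min against 24 h were then 0.20 for Atf4, 0.21 for Xbp1 and 0.43 for Ddit4, and those for 1xCHI 30 min against Sham 0.34 for Atf4, 0.35 for Xbp1, 0.50 for Ddit3 and 0.68 for Ddit4. In the same fit Asns differed from 4xCHI 24 h by -0.20 at 30 min (unadjusted p = 0.107) and -0.21 at 4 h (unadjusted p = 0.096).

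Among other genes of the pathway, a list of 8 around eIF2α phosphorylation (the 4 kinases, the phosphatase subunits Ppp1r15a and Ppp1r15b, Eif2s1, which is eIF2α itself, and the co-chaperone Dnajc3) had 0 called in 30 min against 24 h and 3 at an unadjusted p under 0.05. Over all features 0.145% were called and 10.5% were under 0.05 in this comparison. Ppp1r15a, the inducible subunit that removes the phosphate, had a log2 fold change of 0.33, and the kinases Eif2ak2 (PKR) and Eif2ak3 (PERK) -0.39 and -0.19. Of 24 further Atf4 targets for amino acid supply and tRNA charging, 0 were called and 4 were under 0.05: the cysteinyl-tRNA synthetase Cars (0.21), the tRNA exporter Xpot (-0.15), the cystine transporter Slc7a11 (-0.38) and the mitochondrial folate enzyme Mthfd2 (0.18). Their median was -0.03, near the -0.01 of all features. Of 12 other targets among regulators and secreted factors, 10 were tested, and 0 were called or under 0.05; the lowest p-values were those of Vldlr (-0.22), Cdkn1a (0.38) and Stc2 (-0.37). Of 24 ER chaperones and factors of ER-associated degradation, 23 were tested, 0 were called and 8 were under 0.05, of which 6 were positive. Sec24d, a coat protein of ER export vesicles, had -0.34, the secreted ER factor Manf 0.23 and the co-chaperone Dnajb11 0.22.

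In 1xCHI 30 min against Sham, edgeR called 0 genes of all these lists. In the ER list 9 of 23 had an unadjusted p under 0.05, all positive, with Manf at 0.45, Creld2 at 0.72 and Sdf2l1 at 0.77. The eIF2α list had 2 of 8 (Eif2ak2 at -0.61, Eif2ak1 at -0.24), and the amino acid list 6 of 24, evenly split in sign, with Cars at 0.44, Mthfd2 at 0.40 and Xpot at -0.25. In the list of regulators 3 of 10 were under 0.05: the transcription factor Cebpb at 1.28, Vldlr at -0.57 and Cdkn1a at 0.93. In this comparison 19.7% of all features were under 0.05.

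Lists for other signals that act on some of these genes were counted in the same way, against 0.145% of all features called and 10.5% under an unadjusted p of 0.05 in 30 min against 24 h. Of 15 immediate early genes, 8 were called as higher at 30 min than at 24 h by edgeR and 14 were under an unadjusted p of 0.05, with a median of 1.43. Fosb had a log2 fold change of 2.98 (adjusted p = 0.000445), Npas4 2.83, Fos 2.50, Btg2 1.62, Nr4a1 1.53, Junb 1.52, Egr4 1.43 and Dusp1 1.22. In 1xCHI 30 min against Sham 0 of the 15 were called and 2 were under 0.05, against 19.7% of all features, with a median of 0.37. In 3xCHI 30 min against 2xCHI 24 h 0 were called and 10 were under 0.05, against 1.88% of all features, and all 15 were positive with a median of 1.46. In 5xCHI 30 min against 4xCHI 24 h 0 were called and 2 were under 0.05, against 6.36% of all features, with a median of 0.16. At 24 h edgeR also called 0 of the 15 in each comparison with a control. The median was -0.57 for 1xCHI against Sham, with 4 under 0.05 (6.02% of all features), -0.12 for 3xCHI against 2xCHI, with 0 under 0.05 (4.57%), and -1.15 for 5xCHI against 4xCHI, with 13 under 0.05 (6.44%). Of 15 glucocorticoid-responsive genes 0 were called and 6 were under 0.05, all positive, with Tsc22d3 at 0.38, Nfkbia at 0.55 and Errfi1 at 0.27. Of 12 hypoxia-responsive genes 11 were tested, with 0 called and 2 under 0.05, the kinase Pdk1 at -0.20 and the glucose transporter Slc2a1 at 0.26. Of 12 p53 target genes 10 were tested, and 1 was called, Btg2, which is also in the immediate early list. With samples 13 and 14 left out, 0 features of any kind were called in this comparison.

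For the 3 genes with the lowest time course p-values among the 8 of the main fit, the features most alike over the 39 libraries were found by Pearson's r of log2 CPM. Xbp1 was closest to the ER genes Manf (r = 0.85), P4ha1 (0.84) and Pdia6 (0.83). Atf4 was closest to Crhr1 (0.86), a receptor for corticotropin-releasing hormone, Fkbp4 (0.84) and Lin7b (0.81). Herpud1 was closest to Phospho1 (0.69), Frmd6 (0.68) and Bhlhe40 (0.67). Chosen after their values were seen, Atf3 was closest to Zfp36 (0.82), Socs3 (0.82) and Gem (0.81), Ddit4 to Nfkbia (0.92) and Sgk1 (0.86), Ddit3 to Cox4i1 (0.919), a subunit of the respiratory chain, Ddrgk1 (0.918) and Fibp (0.917), followed by the ribosomal protein genes Rpl4 (0.916) and Rps4x (0.913), and Asns to the alanyl-tRNA synthetase Aars (0.87). Among the 10 genes themselves r was 0.72 for Atf4 with Xbp1, 0.69 for Atf3 with Ddit3, 0.66 for Atf3 with Ddit4 and 0.12 for Atf3 with Atf4, and it was -0.53 for Ddit3 with Asns. These are descriptions over the same 39 libraries, which also share depth, tissue composition and the samples that stand apart.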

How the data were processed

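Libraries were sequenced, aligned and counted by a company for the authors (genome build mm10 per the labels, tool version not given in the sources used here). The authors deposited estimated counts per gene, neither normalized nor filtered, of which 4.46% are not whole numbers, and these were rounded here. By the study's rule, a feature was dropped if over 4 of the 39 libraries had under 10 of its counts. In R 4.3.3, edgeR 4.0.16 fitted 12 group means to 39 libraries (TMM scaling, glmQLFit and glmQLFTest) for 17 comparisons, with Benjamini-Hochberg adjustment and a threshold of 0.05. Atf3 and Trib3 were added in a second fit chosen after seeing the data. In simulated counts of 15224 features, the fit recovered 97% of changes of 1 log2 unit for 30 min against 24 h. For 1xCHI 30 min against Sham it recovered 75%, and false calls were 7 and 6. The simulation held no libraries that stand apart and no changes under 1 log2 unit. It therefore does not show how often smaller changes, like those of the 8 genes, would be found. DESeq2 1.42.0, sva 3.50.0 and other settings were alternatives. Correlations used log2 CPM with a prior count of 1. The labels give each library a number and do not say more about how animals were handled, so p-values measure the spread between these samples. The 46 pairs of libraries within groups all differed by more than sampling noise. The genes, lists and tests were chosen with earlier results of these data known. All 10 genes are named; other genes are named if called, or as the 3 of a list with the lowest p, or as the 3 most correlated with the 3 genes of lowest time course p among the 8 of the main fit. Chosen after their values were seen were Gfap, S100a8, Slc4a5, Mthfd2 for 30 min against 24 h, and the correlates of Atf3, Ddit4, Ddit3 and Asns. Ppp1r15b, Eif2s1 and Dnajc3 are named only as members of their list.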

Additional observations from a re-analysis of the deposited data

Results flagged for a closer look

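Each gene was examined in the 4 groups of 4 libraries for a value whose gap to its nearest neighbour exceeds Dixon's critical value, which chance gives in about 1 of 20 groups. It was found in 4 of 40 cases. Atf3 in 5xCHI 24 h had 11.3 CPM in sample 11, with the next library at 0.981 CPM. Trib3 in the same group had 3.07 CPM in sample 11, with the next at 0.783 CPM. Atf3 in 1xCHI 24 h had 2.06 CPM in sample 26, with the next at 0.443 CPM, and sample 26 had the lowest Gfap of all libraries. Sesn2 in Sham had 14.5 CPM in sample 39, below the next at 15.8 CPM. Sample 30, which entered no comparison, held 103 CPM of Asns on the scaling of all 40 libraries, above the 83.4 to 93.0 CPM of Sham, and its Ddit4 (24.4 CPM) and Trib3 (0.485 CPM) were below all Sham libraries.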

How the results depend on the processing

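Atf3 and Trib3 rest on 6 to 275 and 6 to 66 counts a library. The fold changes compared across settings are those of the 10 genes for 30 min against 24 h and for 1xCHI 30 min against Sham, those of Herpud1 for 4 h against 24 h, 1xCHI 4 h against Sham and 3xCHI 24 h against 2xCHI, of Sesn2 for 1xCHI 4 h against Sham, of Asns for 5xCHI 30 min and 4 h, of Atf3 for 3xCHI 30 min and the 3 times of 5xCHI, and of Trib3 for 5xCHI 24 h, the last 3 genes against 2xCHI or 4xCHI. Of these, 223 of 234 values under other settings kept their direction and side of the threshold, as did 353 of 365 with single libraries left out. None of them was called in the main fits, so keeping the side of the threshold says little about how stable the values are. Other comparisons held further sign changes: for 5xCHI 24 h against 4xCHI, Ddit3 went from 0.36 to -0.06 without sample 11. DESeq2 called 59 features in the time course, 52 for 30 min against 24 h, 28, 11 and 19 for 1xCHI at 30 min, at 4 h and averaged against Sham, 4 for 3xCHI 30 min, 1 for 5xCHI 30 min, 7 for 5xCHI averaged, 20 for injury number and 6 for the interaction. Without a filter these were 17 for the time course, 2 for 1xCHI 4 h, 4 for 3xCHI 30 min, 1 for 5xCHI averaged and 5 for injury number. With 1 surrogate variable they were 2 for the time course and 1 for 3xCHI averaged. Leaving out samples 13 and 14, chosen after seeing the data, gave 2 for the time course and 0 for 30 min against 24 h, and leaving out samples 10 and 11, likewise, gave 3 for 4 h against 24 h and 1 for 1xCHI 4 h. The causes were not tested.

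With single libraries left out, calls ranged from 0 to 3602 for 1xCHI 30 min, 0 to 606 for 1xCHI 4 h and 0 to 119 for 1xCHI averaged against Sham, 4 to 192 for 30 min and 1 to 4 for 4 h against 24 h, 0 to 5 for 3xCHI 30 min, 0 to 2 for injury number, 0 to 4 for the interaction and 2 to 28 for the time course. Of the 8 genes, 0 to 4 were called for 1xCHI 30 min and 0 to 2 for 30 min against 24 h. The log2 fold changes from Sham at 1xCHI 30 min ranged from 2.91 to 4.07 for Atf3, 0.28 to 0.49 for Atf4, 0.51 to 1.05 for Ddit3, 0.70 to 1.04 for Ddit4 and 0.26 to 0.56 for Xbp1. For 30 min against 24 h they ranged from 0.87 to 2.18 for Atf3, 0.18 to 0.25 for Atf4, 0.18 to 0.29 for Xbp1, -0.39 to 0.024 for Trib3 and -0.026 to 0.073 for Chac1. The sign turned for Trib3 without sample 11 (0.024) or samples 10 and 11 (0.021), for Herpud1 without samples 13 and 14 (-0.015), and for Chac1 without samples 15, 24, 31 and 32 (-0.024), 12 (-0.015), 27 (-0.0015) or 31 (-0.026). Without samples 13 and 14 the difference of 1xCHI 30 min from Sham turned sign for Atf3 (-0.0041), Ddit3 (-0.118), Xbp1 (-0.090), Herpud1 (-0.067), Chac1 (0.023) and Asns (0.034), and with 1 surrogate variable for Chac1 (0.052). No paired analysis was possible because the sample numbers are unique to each animal and groups share none.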
